A study of Mus musculus with 32 samples.

Results

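To describe the state of skeletal muscle 5 days after it lost its nerve, 4 gastrocnemius (GAS) muscles taken at day 5 post denervation were compared with 4 taken at day 0, which makes 8 of the 32 samples of a time course of bulk RNA sequencing. Of the 33397 genes in the table, 17931 had a level of at least 0.1 FPKM (fragments mapped to a gene, scaled to its exon length and to the depth of the sample) in at least 4 of the 8 samples and were tested. The animals were young male C57BL/6J mice, given as C57BL/6 in the labels, and denervation was done by cutting out a piece of the left sciatic nerve. Day 0 and day 5 share strain and tissue, and the labels give sciatic nerve transection as the treatment of both. The study's text compares sequenced muscle with a sham, not denervated group and does not say there that this group is day 0. In its protein and PCR figures the series starts at day 0 and is tested against the sham group. Sham mice had the same procedure without the nerve cut. Whether the sequenced day 0 mice had this operation is not told. Samples of the right leg or of a sham operation at day 5 are not analysed here. The study's text states that each analysis used 4 or more biologically independent samples. The labels do not say which samples came from which animal, and if some were not from separate mice the p-values would measure the spread between samples alone.

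A motor nerve keeps its muscle fibers electrically active and confines acetylcholine receptors to the synapse. When the nerve is cut, the fibers fall silent, the part of the axon beyond the cut degenerates, and the fibers resume expression of receptor subunits and myogenic factors that are otherwise low in adult innervated muscle. Denervated fibers lose mass as protein breakdown through the ubiquitin-proteasome system and autophagy outpaces synthesis. Transcription factors of the MyoD family, among them myogenin (Myog), bind the E-box, a motif spelled CANNTG, and E-boxes near the start sites of receptor genes have been a model for how electrical activity controls muscle genes.

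Promoter sequences of 4 genes are shown because their transcripts moved in different directions after denervation and because myogenin is itself among them. They are the 250 bases before the RefSeq start site in the mouse build GRCm38.p6, read 5′ to 3′ on the gene's strand, with every E-box in capitals.
Chrna1 (chr2:73580339-73580588, minus strand): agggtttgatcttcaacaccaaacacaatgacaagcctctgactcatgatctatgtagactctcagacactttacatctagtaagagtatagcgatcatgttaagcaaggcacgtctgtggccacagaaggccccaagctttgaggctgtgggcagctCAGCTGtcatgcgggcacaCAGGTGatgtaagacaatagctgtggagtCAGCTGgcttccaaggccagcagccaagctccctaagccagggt
Chrng (chr1:87205561-87205810, plus strand): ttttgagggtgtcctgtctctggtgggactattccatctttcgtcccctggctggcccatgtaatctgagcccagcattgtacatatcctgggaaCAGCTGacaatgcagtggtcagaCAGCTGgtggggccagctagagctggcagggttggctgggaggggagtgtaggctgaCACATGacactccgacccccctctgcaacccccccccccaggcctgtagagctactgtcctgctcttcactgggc
Chrne (chr11:70619195-70619444, minus strand): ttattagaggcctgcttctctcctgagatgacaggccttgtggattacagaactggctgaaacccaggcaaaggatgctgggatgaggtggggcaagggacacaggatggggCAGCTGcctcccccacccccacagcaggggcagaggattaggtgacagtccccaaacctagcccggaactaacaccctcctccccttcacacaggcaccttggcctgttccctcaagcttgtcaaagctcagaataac
Myog (chr1:134289754-134290003, plus strand): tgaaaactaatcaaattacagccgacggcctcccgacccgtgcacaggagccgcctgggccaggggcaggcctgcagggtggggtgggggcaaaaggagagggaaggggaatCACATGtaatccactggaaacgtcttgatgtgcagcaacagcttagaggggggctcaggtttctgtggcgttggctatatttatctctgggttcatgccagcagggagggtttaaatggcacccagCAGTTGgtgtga
The E-boxes of Chrna1 lie at -92, -73 and -44, those of Chrng at -155, -132 and -75, the 1 in Chrne at -138 and those of Myog at -138 and -12, counted from the start site to the first base of the motif. The Chrng window lies in the first intron of a longer annotated transcript. CANNTG reads the same on both strands, so a single search covers both. Windows of Chrnb1 and of Musk, the receptor kinase that organizes the synapse, held 3 E-boxes each. Among 32851 RefSeq windows of the same length, 66.2% held at least 1 E-box, 31.8% at least 2 and 12.2% at least 3. A match is a run of letters, and binding was not measured.

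Day 5 muscle differed from day 0 muscle in a large share of its transcripts. With limma on log2(FPKM + 1), 4175 genes (23.3% of those tested) passed a Benjamini-Hochberg adjusted p of 0.05 and a change of at least 1.5-fold, and these are the genes called higher or lower below. 3321 genes (18.5%) were called higher and 854 (4.76%) lower. The balance between directions depended on scaling. When samples were rescaled so that the median gene kept its level (median-ratio scaling), 1460 genes (8.14%) were higher and 1620 (9.03%) lower, and all 1460 and all 854 genes were called in the same direction under both scalings. The median log2 change of the 11746 genes with a mean of at least 1 FPKM was 0.30 as deposited and 0.00 after this scaling, so small increases are given below with their call under both. Counts of list members called stand against these shares of all genes, 18.5% higher and 4.76% lower for the deposited values (8.14% and 9.03% with that scaling). Values in the 4 samples of a day are listed in the order of the columns. Fold changes are differences of log2(FPKM + 1), which understate the change of genes near 0.

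Depth was similar between the days, at 14916103 to 15864389 recovered fragments per day 0 sample and 16312054 to 17411252 per day 5 sample. Transcripts of the mitochondrial genome took 14.5 to 18.2% of fragments at day 0 and 7.90 to 10.8% at day 5, and the 10 most abundant genes took 23.7 to 26.3% and 12.8 to 15.1%. When the samples were rescaled without the genes of the mitochondrial genome, 2638 genes were higher and 1090 lower, so that 70.8% of called genes were higher in place of 79.5%. The part of the other abundant genes was not tested. Samples of a day correlated at r = 0.987 to 0.992 and samples of different days at r = 0.901 to 0.913 over 11916 genes, values that share library preparation and gene composition. The range of the groups did not overlap for 53.7% of genes tested, so a lack of overlap alone sets no gene apart. For any such gene the exact permutation test over the 8 samples (two-sided) gives p = 0.0286, the smallest that 4 against 4 allows. The labelled tissue was checked by 9 muscle fiber markers, whose summed level was 51900 to 55640 FPKM at day 0 and 35660 to 37820 FPKM at day 5. The labels' extraction text speaks of retinas, and the 9 retinal markers in the table summed to 0.132 to 0.334 FPKM at day 0 and 0.226 to 0.454 FPKM at day 5, with 2 of them at 0 in all 8 samples.

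The nicotinic acetylcholine receptor of the endplate is a pentamer. Fetal receptors carry the gamma subunit (Chrng) and adult receptors the epsilon subunit (Chrne), beside alpha (Chrna1), beta (Chrnb1) and delta (Chrnd). All 5 subunit genes were tested, of which 4 rose and 1 fell, under both scalings. Chrna1 (ENSMUSG00000027107, chr2:73563215-73580338) was at 4.11, 3.03, 3.41 and 3.68 FPKM at day 0 and at 120, 134, 117 and 119 FPKM at day 5. Its log2 change was 4.76 ± 0.08 (SE, limma adjusted p = 8.91e-10). Day 5 samples thus lay within a narrow band far above every day 0 sample. Chrnd was at 0.770, 0.917, 0.956 and 0.939 FPKM at day 0 and 27.5, 33.0, 30.9 and 34.1 FPKM at day 5, a log2 change of 4.09 ± 0.08 (SE). Chrnb1, which was already expressed in innervated muscle, rose from 11.4 ± 0.838 to 74.2 ± 6.51 FPKM (mean ± SD, n = 4), a log2 change of 2.60.

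The gamma and epsilon subunits moved in opposite directions. Chrng was nearly absent at day 0, at 0.0156, 0.0966, 0 and 0.0454 FPKM or 0 to 6 fragments a sample, and was at 13.6, 15.1, 15.3 and 17.2 FPKM at day 5. It passed the filter on low values through the day 5 samples alone, so that its call follows from its entry, and could not be tested when any of them was left out. Its log2 change was 3.97 ± 0.08 (SE), given as a description. Chrne was at 6.72, 6.38, 8.30 and 9.06 FPKM at day 0 and at 3.48, 3.88, 4.04 and 3.70 FPKM at day 5, and its log2 change was -0.84 ± 0.10 (SE, limma adjusted p = 7e-05). The fetal subunit therefore went from far below to above the adult subunit on the per-length scale, at 15.3 against 3.78 FPKM on average at day 5. With their windows above, Chrng with 3 E-boxes rose and Chrne with 1 fell, and 6 genes with a window are too few to relate the number of motifs to the change.

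Among 11 genes of synapse assembly, 4 rose and 2 fell as deposited, and the median log2 change of 0.41 stood beside 0.19 for all genes tested. Musk was at 8.34, 7.84, 12.02 and 10.8 FPKM at day 0 and 48.2, 60.9, 54.6 and 54.1 FPKM at day 5 (log2 change 2.38). Ncam1, an adhesion molecule that spreads over the denervated fiber surface, rose from 0.482 ± 0.1003 to 4.58 ± 0.406 FPKM (log2 change 1.91), though 417 of its exonic bases lie opposite an antisense gene and the use of strand in counting is not stated in the sources used here. Erbb3, a neuregulin receptor, rose by 0.92, and Lrp4, the receptor of nerve-derived agrin, rose by 0.79 as deposited but was not called after median-ratio scaling. Both genes of the enzyme that clears acetylcholine fell. Ache, the esterase itself, was at 6.11, 5.78, 5.77 and 6.12 FPKM at day 0 and 1.33, 1.35, 1.37 and 1.11 FPKM at day 5 (log2 change -1.60), and Colq, its collagen anchor, had a log2 change of -1.07. Rapsn, which clusters the receptor, ranged from 0.892 to 7.31 FPKM among day 0 samples and from 3.96 to 5.97 FPKM at day 5, and its log2 change of 0.41 did not pass (limma adjusted p = 0.358). Dok7, the adaptor of MuSK, changed by 0.54 and agrin itself (Agrn) by 0.28, both under 1.5-fold, and Nrg1 was too low to test.

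Of 16 myogenic and denervation-responsive regulators, 9 rose and 1 fell as deposited, and 7 rose and 2 fell after median-ratio scaling. Myog (ENSMUSG00000026459, chr1:134289989-134292548) was at 1.61, 1.61, 2.59 and 2.07 FPKM at day 0 and at 84.6, 94.2, 88.6 and 109 FPKM at day 5, a log2 change of 5.01 ± 0.12 (SE, limma adjusted p = 2.89e-09). It had the largest change of the 16. The other factors of its family differed in level and in change. Myf6 (MRF4), the most abundant of them in adult muscle, rose from 90.4 ± 7.73 to 721 ± 40.4 FPKM (log2 change 2.98), and Myod1 rose from 7.88 ± 1.45 to 65.2 ± 9.55 FPKM (2.90). Myf5, which marks muscle precursors, was at 1.22 and 2.18 FPKM and changed by 0.51, under 1.5-fold. Runx1, a transcription factor, rose from 0.394 to 12.9 FPKM (3.32), the kinase Sik1 from 2.61 to 27.4 FPKM (2.98) and the histone deacetylase Hdac4 from 2.22 to 15.4 FPKM (2.35), the last with 3536 exonic bases opposite an antisense gene. Dach2, a repressor of Myog, fell from 0.915 to 0.226 FPKM (log2 change -0.64). Mymk and Mymx, the membrane proteins of myoblast fusion, rose by 1.07 and 0.59, the latter as deposited only.

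**Figure D1:**
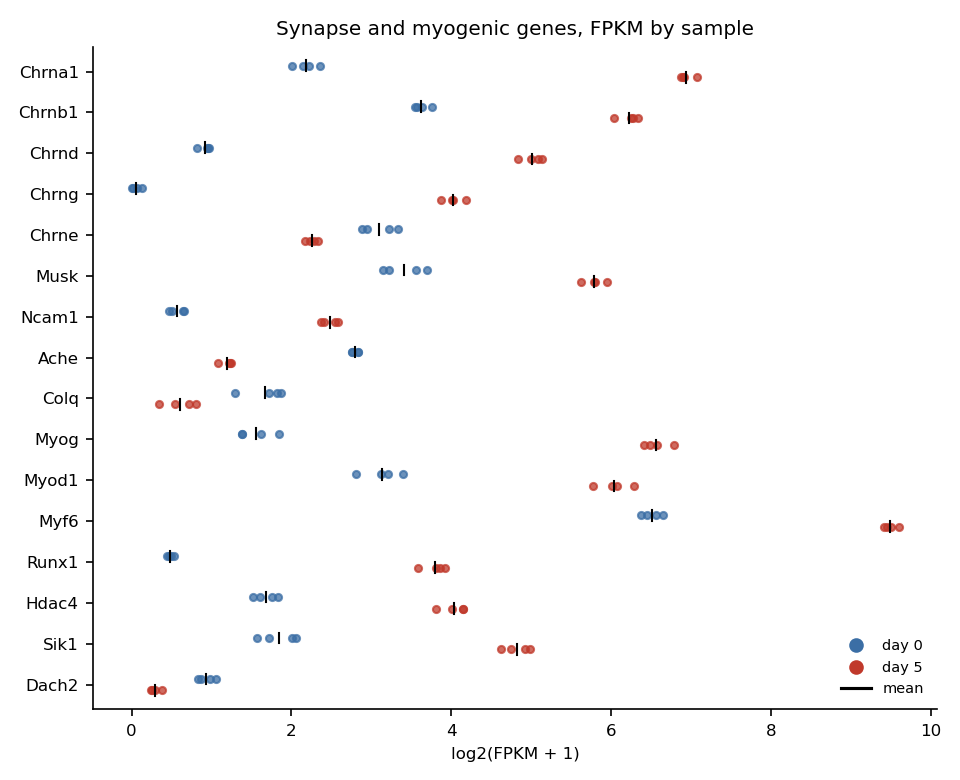
log2(FPKM + 1) in each of the 4 day 0 and 4 day 5 samples for acetylcholine receptor subunits, synapse genes and myogenic regulators, with a line at each mean. Day 5 samples lie above every day 0 sample for Chrna1, Chrnd, Chrng, Musk and Myog and below them for Chrne, Ache and Dach2.

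On the scale of log2(FPKM + 1), the largest increases fell on cytoskeletal genes. This ranking covers called genes without Gm or Rik symbols, with no overlap and at least 5 FPKM at day 5. Krt18 (ENSMUSG00000023043, chr15:102028180-102032027), a keratin of simple epithelia that also occurs at the muscle fiber's costameres, was at 0.497, 0.420, 0.821 and 0.175 FPKM at day 0 and at 240, 308, 183 and 183 FPKM at day 5. Its partner Krt8 was at 0.0331, 0.0342, 0 and 0.0644 FPKM at day 0 and at 63.4, 98.7, 67.4 and 66.7 FPKM at day 5. These 2 keratins pair to form a filament, and both were highest in the same day 5 sample. For Krt8, 4 fragments at day 0 against 9775 at day 5 gave a ratio of 2221 after allowing for depth, with a 95% exact interval of 867 to 8152 that covers counting error only. Krt8 passed the filter on low values through the day 5 samples alone, so its values are a description. Ankrd1 (ENSMUSG00000024803, chr19:36111961-36120099), a titin-bound protein of the I band, was at 4.59, 2.79, 3.02 and 4.96 FPKM at day 0 and at 548, 594, 491 and 539 FPKM at day 5. Its day 5 samples spread by less than those of Krt18, with SDs of 42.2 and 59.6 FPKM around means of 543 and 229 FPKM.

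Of the 17 cytoskeletal and Z-disc genes, 15 rose and none fell as deposited, beside 18.5% and 4.76% of all genes, with a median log2 change of 1.60. After median-ratio scaling 13 rose and 1 fell. The list includes Krt18, Krt8 and Ankrd1 above, and Krt8 passed the filter through the day 5 samples alone. Igfn1, a sarcomere-associated immunoglobulin domain protein, rose from 3.56 to 69.2 FPKM (log2 change 4.08). Csrp3 (muscle LIM protein) rose by 2.46, though its day 0 values ranged from 22.3 to 66.4 FPKM. The small heat shock proteins Hspb1 and Cryab rose from 143 to 734 FPKM (2.35) and from 397 to 1193 FPKM (1.60), and filamin C (Flnc) rose by 1.69. Des, the main intermediate filament of muscle, rose from 632 ± 55.8 to 1375 ± 50.2 FPKM (1.12), and it was the most abundant of the list on both days. Synemin (Synm) and Xirp2, which also sit at the Z-disc, changed by -0.41 and -0.10 and were not called, Synm being called lower after median-ratio scaling.

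By a rule of size, the 12 largest increases among genes with at least 5 FPKM at day 5 also held Rrad, a small GTPase that restrains voltage-gated calcium channels, Gadd45a, a growth arrest and DNA damage gene, and Ces2c, a carboxylesterase. Rrad was at 2.12 to 6.23 FPKM at day 0 and 217 to 253 FPKM at day 5 (log2 change 5.77). Gadd45a was at 2.28 to 6.28 FPKM and 188 to 212 FPKM (5.43), and Ces2c at 0.141 to 0.262 FPKM and 33.9 to 42.6 FPKM (4.99). As the rule requires, no sample of these 3 genes overlapped between days. Embryonic myosin Myh3 rose from 0.803 to 34.8 FPKM (4.33), Plekhh1 from 0.167 to 21.5 FPKM (4.26), the phospholipid-binding copine Cpne2 from 5.23 to 116 FPKM (4.26) and the chemokine Ccl8 from 1.08 to 37.1 FPKM (4.19). Exons of Plekhh1 overlap the antisense gene Pigh over 992 bases, those of Gadd45a an antisense transcript over 337 bases and those of Rrad another over 141 bases.

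**Figure D2:**
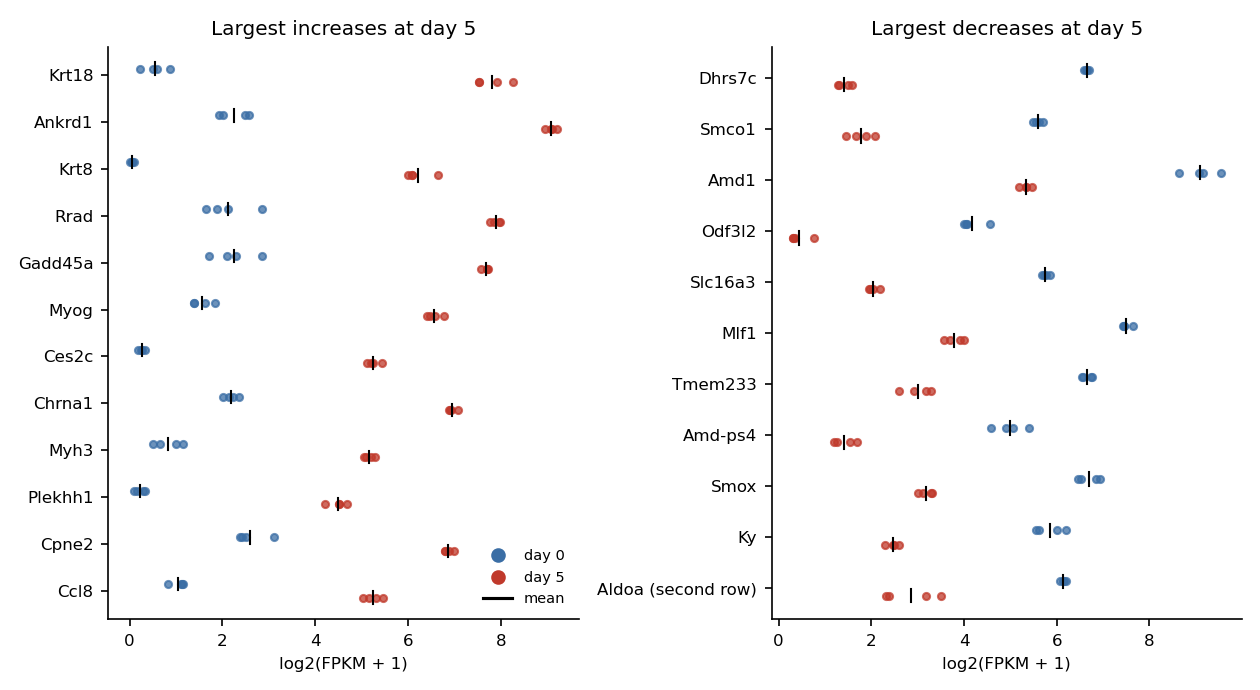
log2(FPKM + 1) in each of the 8 samples for the genes with the largest increase and decrease under the rule of size, with a line at each mean. The rule takes only genes whose day 0 and day 5 samples do not overlap.

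Sarcomere genes differed by isoform. Of 12 developmental, slow and cardiac isoforms, 4 rose and 3 fell (4 and 5 after median-ratio scaling), beside 18.5% and 4.76% of all genes. The 4 that rose are developmental or cardiac forms: Myh3, neonatal myosin Myh8 (0.227 to 4.04 FPKM, log2 change 2.03), the embryonic and atrial light chain Myl4 (2.19 to 21.01 FPKM, 2.79) and cardiac troponin T Tnnt2 (0.468 to 3.68 FPKM, 1.68). Slow-fiber genes varied widely at day 0. Myl2, the slow and ventricular light chain, was at 293, 188, 87.3 and 82.8 FPKM at day 0 and 63.4, 49.0, 80.3 and 89.0 FPKM at day 5, and the groups overlapped. Its log2 change of -1.03 passed (limma adjusted p = 0.0419) but did not when some single samples were left out (limma adjusted p up to 0.10). Myl3, another slow light chain, was at 313, 214, 130 and 119 FPKM at day 0 and 39.1, 30.6, 46.2 and 45.9 FPKM at day 5 (log2 change -2.14). Slow myosin Myh7 was at 30.8 ± 11.3 and 29.0 ± 12.03 FPKM and did not pass. Cardiac actin Actc1 had a log2 change of -1.35.

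Of 14 adult fast sarcomere genes, none rose and 8 fell as deposited and 10 after median-ratio scaling, with a median log2 change of -0.81. Myh4, the type IIB myosin that dominates mouse GAS, was at 4879, 4412, 6504 and 6331 FPKM at day 0 and at 1359, 1748, 1866 and 1606 FPKM at day 5 (log2 change -1.74). The largest decreases of the list were in kinases that phosphorylate the light chain, Mylk2 (260 to 47.9 FPKM, -2.42) and Mylk4 (282.5 to 56.5 FPKM, -2.28). The structural proteins Mybpc2 (-1.32), Myl1 (-1.06), Tpm1 (-1.03) and Tnni2 (-0.67) fell as well. The 3 adult myosins did not move alike. Type IIX myosin Myh1 had a log2 change of -0.95, while type IIA myosin Myh2 was at 432, 590, 397 and 343 FPKM at day 0 and 587, 535, 533 and 600 FPKM at day 5, with groups that overlapped and a log2 change of 0.38 that was under 1.5-fold and 0.00 after median-ratio scaling. Skeletal actin Acta1 was at 13880 and 12180 FPKM and did not pass. Fast troponin C (Tnnc2) is listed near 1 FPKM, with 592 exonic bases opposite Ube2c, and gives no measure of that protein's transcript.

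Of 21 genes of the triad, where the T-tubule meets the sarcoplasmic reticulum, and of calcium handling, 2 rose and 8 fell (2 and 11 after median-ratio scaling). Dhrs7c (ENSMUSG00000033044, chr11:67798187-67816002), a dehydrogenase of the sarcoplasmic reticulum, was at 99.6, 95.6, 102 and 98.4 FPKM at day 0 and at 1.46, 1.83, 2.02 and 1.43 FPKM at day 5, the largest decrease under the rule of size. Junctophilin 2 (Jph2), which ties the triad membranes together, was at 122, 123, 150 and 141 FPKM at day 0 and 37.7, 44.5, 42.5 and 48.3 FPKM at day 5 (log2 change -1.61). Jph1 (-0.76) and triadin (Trdn, -0.70) fell too. Several calcium buffers and the fast pump fell. Parvalbumin (Pvalb) fell from 6899 ± 509 to 2966 ± 228 FPKM (-1.22), calsequestrin 1 (Casq1) from 687 ± 31.6 to 299.6 ± 12.7 FPKM (-1.19), Hrc by a log2 change of -1.02 and the fast calcium pump Atp2a1 from 3753 ± 454 to 2183 ± 162 FPKM (-0.78). The cardiac and slow buffer Casq2 and the slow pump Atp2a2 changed by 0.54 and -0.07 and were not called. The release channel Ryr1 and its voltage sensor Cacna1s changed by 0.20 and 0.33 and were not called. Against this, Sln (ENSMUSG00000042045, chr9:53850164-53854560), which encodes sarcolipin, a peptide that inhibits the calcium pump, was at 5.81, 3.81, 2.04 and 2.15 FPKM at day 0 and 27.3, 31.2, 26.9 and 30.2 FPKM at day 5 (2.83). Cacng1, the gamma subunit of the muscle calcium channel, rose from 170.4 to 790.3 FPKM (2.21).

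Ion channels of the sarcolemma went both ways, with 5 of 13 called higher and 6 lower (3 and 6 after median-ratio scaling). The sodium channel of adult muscle, Scn4a, was at 52.0, 57.3, 68.8 and 59.9 FPKM at day 0 and at 47.1, 61.1, 61.4 and 53.2 FPKM at day 5 and did not pass (log2 change -0.09). Kcnn3, a calcium-activated potassium channel, rose from 0.592 to 16.3 FPKM (3.44) and Kcnc4 by 1.20. Kcna7 fell from 52.8 to 8.14 FPKM (-2.57), the water channel Aqp4 from 8.00 to 0.748 FPKM (-2.35), and the chloride channel Clcn1 (-0.93), the inward rectifier Kcnj2 (-1.11) and the sodium pump subunits Atp1b2 (-1.33) and Atp1b1 (-0.98) fell less. Kcnj11, a subunit of the ATP-sensitive potassium channel, rose by 0.63 as deposited only.

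In protein breakdown, the proteasome and the ubiquitin ligases differed. All 31 proteasome subunit genes rose as deposited and 23 did after median-ratio scaling, from a log2 change of 0.77 (Psmb7) to 1.82 (Psmd11, 15.0, 13.3, 15.6 and 15.5 FPKM at day 0 and 56.3, 57.4, 52.6 and 53.3 FPKM at day 5). Their median was 1.13 beside 0.19 for all genes tested. Of 19 ubiquitin ligases described in muscle, 5 rose beside 18.5% of all genes, and the median log2 change was 0.22. Trim63 (ENSMUSG00000028834, chr4:134315120-134329629), which encodes the sarcomere ligase MuRF1, was at 86.6, 76.1, 107 and 95.6 FPKM at day 0 and at 531, 607, 593 and 525 FPKM at day 5 (2.62). Fbxo32, which encodes the other ligase widely used as a marker of atrophy, atrogin-1, was listed at 0.791, 0.807, 1.14 and 0.894 FPKM at day 0 and 0.716, 0.720, 2.04 and 2.16 FPKM at day 5, so that its groups overlapped (0.28, limma adjusted p = 0.281). Its low listing stands beside 186 exonic bases opposite an antisense gene, whose part was not tested. Fbxo30 rose from 5.44 to 16.8 FPKM (1.46), Ubr4 by 1.09 and Mdm2 by 1.03, and Fbxo40 by 0.63 as deposited only. Trim55 (MuRF2) changed by -0.24 and was called lower after median-ratio scaling only.

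Of 23 autophagy and lysosome genes, 11 rose and 1 fell (7 and 2 after median-ratio scaling), beside 18.5% and 4.76% of all genes (8.14% and 9.03%). Map1lc3a, an autophagosome membrane protein, was at 119, 114, 121 and 98.7 FPKM at day 0 and at 488, 466, 474 and 503 FPKM at day 5 (log2 change 2.09). The cargo receptor Sqstm1 (p62) rose from 212 to 564 FPKM (1.41). Lysosomal proteases rose as well, with Ctsl at 20.8 and 88.6 FPKM (2.03, 1742 exonic bases opposite an antisense gene), Ctsd at a log2 change of 1.57 and Ctsb of 1.31. Tfeb, a transcription factor of lysosomal genes, had a log2 change of -0.62, a call that was lost without day 5 sample 3. Bnip3, a mitophagy receptor, changed by 0.49, under 1.5-fold.

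**Figure D3:**
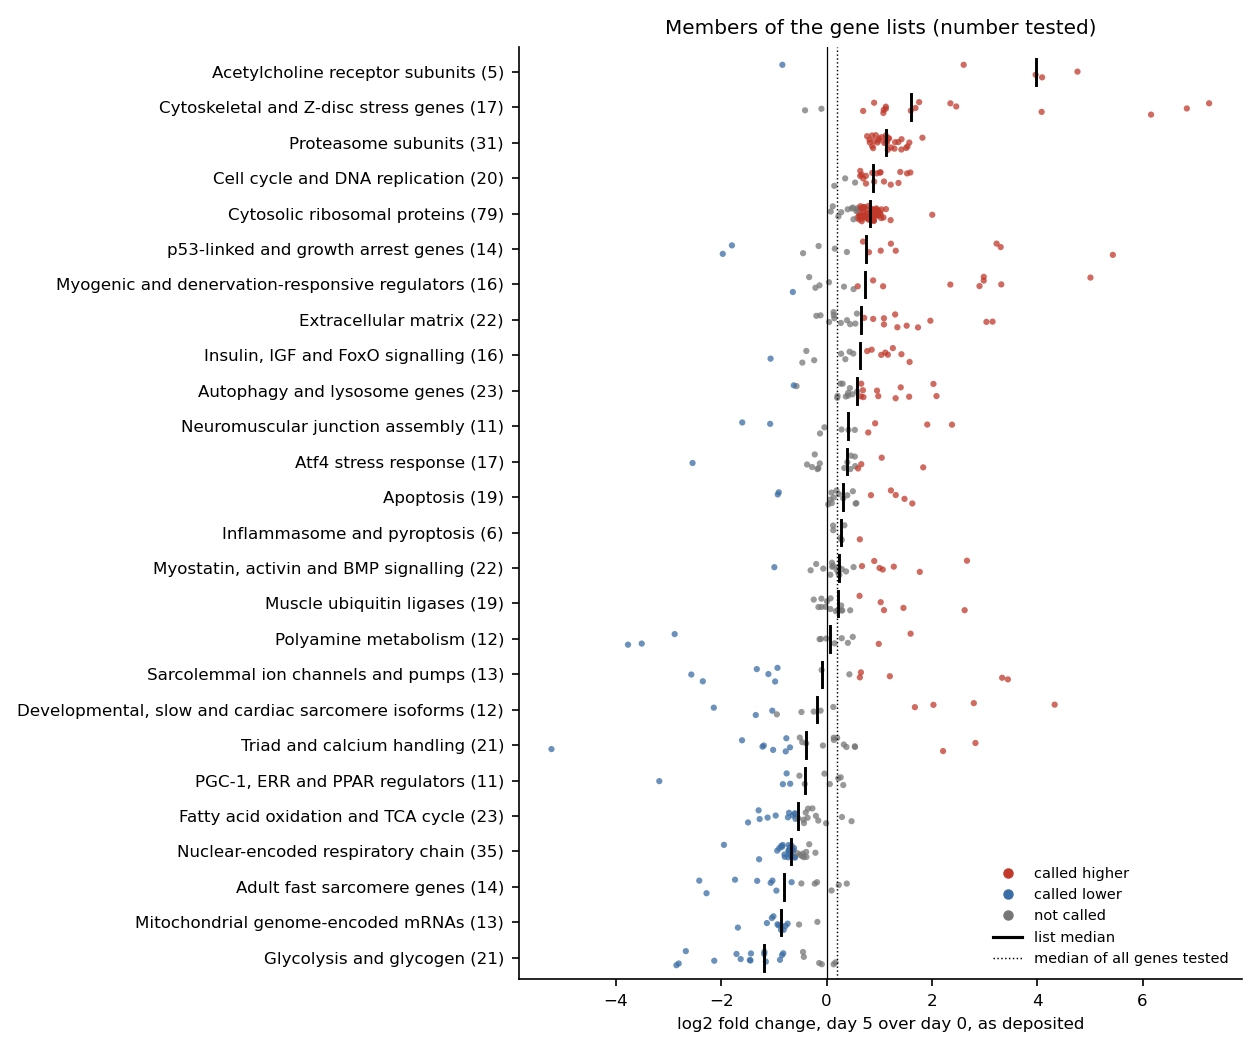
log2 fold change (day 5 over day 0, as deposited) of each tested member of 26 gene lists, 1 row a list, with the number tested in brackets. Colors give the call, a bar the list median and the dotted line the median of all genes tested. The medians of receptor subunits, cytoskeletal genes and proteasome subunits lie to the right and those of glycolysis, mitochondrial and fast sarcomere genes to the left, and of these lists only the proteasome and the respiratory chain and mitochondrial genome lists have all members on 1 side of 0.

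Many genes of fuel metabolism fell. Of 21 genes of glycolysis and glycogen, none rose and 15 fell as deposited and 17 after median-ratio scaling, with a median log2 change of -1.18. Muscle enolase Eno3 was at 2681, 2593, 2561 and 2587 FPKM at day 0 and at 361, 328, 369 and 383 FPKM at day 5 (-2.85). Triose phosphate isomerase Tpi1 was at 832, 804, 714 and 784 FPKM and at 115, 95.4, 114 and 120.1 FPKM (-2.81). Neither enzyme overlapped between days. Fbp2 (-2.67), Phkg1 (-2.13), Ldha (772 to 235.0 FPKM, -1.71), Pgam2 (-1.63), the rate-setting kinase Pfkm (1061 to 390.3 FPKM, -1.44) and the insulin-responsive glucose transporter Slc2a4 (-1.18) fell too. Hk2 and Pkm, at the first and last steps, changed by 0.17 and -0.14 and were not called. Gapdh, often a loading reference, was at 194, 194, 200 and 198 FPKM at day 0 and at 99.96, 109, 117 and 118 FPKM at day 5 (-0.82, limma adjusted p = 3.2e-06). Slc16a3, the exporter of lactate from glycolytic fibers, fell from 53.03 ± 2.65 to 3.12 ± 0.317 FPKM (-3.71). The annotation has 2 Aldoa rows, and the shorter of them fell from 69.7 to 6.67 FPKM (-3.29). The main one was at 2677 and 1960 FPKM (-0.45, called lower after median-ratio scaling only). Exons of the shorter row overlap no other annotated gene, and how reads were divided between the 2 rows was not tested.

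The mitochondrial lists had medians closer to 0 than that of glycolysis. All 35 nuclear genes of the respiratory chain had negative changes, of which 26 were called as deposited and 33 after median-ratio scaling (median -0.67), but 9 when FPKM was converted to TPM. Cox7a1, a muscle subunit of cytochrome oxidase, fell from 229.5 ± 25.6 to 58.6 ± 5.66 FPKM (-1.95), Cox8b had a log2 change of -1.28, and succinate dehydrogenase subunits Sdhb and Sdha changed by -0.94 and -0.90. Of the 13 mRNAs of the mitochondrial genome, 11 fell (median -0.87), mt-Co1 from 46660 to 22770 FPKM (-1.04). Of 23 genes of fatty acid oxidation and the TCA cycle, 11 fell and none rose (18 fell after median-ratio scaling, and as TPM 6 fell and 1 rose), among them Acadm (-1.49), Acaa2 (-1.29), Idh3a (-1.27) and Lpl (-1.12). Among 11 regulators of the PGC-1, ERR and PPAR families, 4 fell (6 after median-ratio scaling). Perm1, a muscle partner of PGC-1 and ERR, was at 46.7, 55.7, 55.3 and 47.5 FPKM at day 0 and 5.21, 4.05, 4.96 and 4.89 FPKM at day 5 (-3.18). Ppargc1a, which encodes PGC-1 alpha, fell from 7.26 to 4.07 FPKM (-0.69), Esrra by a log2 change of -0.83 and Ppara of -0.76. The pyruvate dehydrogenase kinase Pdk4 changed by 0.29 and was not called.

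Ribosomal protein genes were higher as deposited, and growth signaling genes went both ways. All 79 cytosolic ribosomal protein genes had positive changes, 68 were called higher as deposited and 11 after median-ratio scaling, so most of this group's increase did not exceed that of the median gene by 1.5-fold. Rpl3, which muscle replaces with a paralog, rose from 34.4 ± 4.61 to 140.3 ± 6.82 FPKM (2.01). Of 16 genes of insulin, IGF and FoxO signaling, 8 rose and 1 fell as deposited, and 6 rose and 3 fell after median-ratio scaling. Akt1 (15.9 to 49.2 FPKM, 1.58), Akt2 (1.26), Mtor (1.16) and Foxo1 (1.04) rose, Igf1 rose by 0.86 as deposited only, and Irs1, an insulin receptor substrate, fell (-1.06). Of 22 genes of myostatin, activin and BMP signaling, 7 rose and 1 fell (6 and 2 after median-ratio scaling) beside 18.5% and 4.76% of all genes, and 14 were not called as deposited. Gdf5, a BMP ligand, was at 0, 0.0289, 0.0565 and 0.109 FPKM at day 0 and at 5.07, 6.10, 5.71 and 5.73 FPKM at day 5 (2.66), with 936 exonic bases opposite an antisense gene. The BMP targets Id2 (1.77) and Id3 (1.07) rose, and Id1 rose by 0.67 as deposited only. The activin receptor Acvr2b fell (-0.99). Mstn itself changed by -0.30 and did not pass as deposited (limma adjusted p = 0.0905), and was called lower after median-ratio scaling.

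Stress and polyamine genes gave a mixed picture by member. Of 14 genes linked to p53 and growth arrest, 8 rose and 2 fell (6 and 3 after median-ratio scaling), beside 18.5% and 4.76% of all genes. The cyclin kinase inhibitor Cdkn1a (p21) was at 2.83, 3.32, 3.58 and 3.09 FPKM at day 0 and at 32.3, 37.7, 41.6 and 42.4 FPKM at day 5 (3.23), and Eda2r, a receptor of the TNF family, rose from 8.47 to 91.2 FPKM (3.30). Gadd45a rose, as given above, while its relatives Gadd45g (-1.97) and Gadd45b (-1.80) fell. Of 17 genes of the Atf4 response, 4 rose and 1 fell as deposited, beside the same shares of all genes, and 2 rose and 3 fell after median-ratio scaling. Without day 5 sample 4, 2 rose. Eif4ebp1, which holds back translation, rose from 20.1 to 74.0 FPKM (1.83) and Slc7a5 by 1.05, Chac1 fell from 34.5 to 4.87 FPKM (-2.55), and Atf4 changed by -0.28. Fgf21 had 1 fragment at day 0 and 37 at day 5, a ratio of 33.6 with a 95% exact interval of 5.67 to 1363 over the summed fragments of 4 samples a day, which covers counting error only. It is 1 of the 4 that rose, and it passed the filter through the day 5 samples alone. In polyamine synthesis, Odc1, the first enzyme, was at 51.5, 50.4, 56.5 and 55.1 FPKM at day 0 and 157.5, 168, 166 and 161 FPKM at day 5 (1.59), while Amd1, which makes the propylamine donor, fell from 562 ± 141 to 39.3 ± 3.21 FPKM (-3.77) and Smox, which oxidizes spermine, from 103 ± 16.9 to 8.09 ± 0.869 FPKM (-3.51). Reads of Amd1 cannot be told apart with certainty from those of its near copies Amd2 (-2.89) and Amd-ps4 (-3.57).

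The other large decreases under the rule of size were in genes of less defined function. Smco1 fell from 47.2 to 2.45 FPKM (log2 change -3.82), Odf3l2 from 17.2 to 0.364 FPKM (-3.73), Mlf1 from 179 to 12.97 FPKM (-3.70), Tmem233 from 99.7 to 7.13 FPKM (-3.65) and Ky, a peptidase-like protein of the Z-disc, from 57.6 to 4.54 FPKM (-3.38).

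The inflammasome and pyroptosis molecules that the study followed were low in transcript, unlike Trim63 above. Of 6 inflammasome and pyroptosis genes, 4 passed the adjusted p by limma as deposited, of which 1 reached 1.5-fold and none did after median-ratio scaling, whereas limma-voom on fragments called 4 higher. Casp1, the protease of the inflammasome, was at 0.890, 0.577, 1.25 and 0.884 FPKM at day 0 and 2.07, 1.80, 1.78 and 2.05 FPKM at day 5 (0.63 as deposited, limma adjusted p = 0.000593, and 0.42 after scaling), and the call was also lost without day 0 sample 2. Nlrp3, the sensor, was at 0.0640, 0.0165, 0.0484 and 0.124 FPKM and at 0.235, 0.302, 0.311 and 0.245 FPKM (0.26, limma adjusted p = 0.00249, under 1.5-fold on this scale). It was counted in 16 to 22 fragments per day 5 sample. The adaptor Pycard changed by 0.29 and Gsdmd, the pore-forming protein, by 0.34 (0.04 after scaling). Il1b had 7 fragments at day 0 and 20 at day 5, a ratio of 2.60 with a 95% exact interval of 1.06 to 7.27 (counting error only), and Il18 changed by 0.12 as deposited and by -0.13 after scaling (limma adjusted p = 0.481 as deposited). Of 19 apoptosis genes 5 rose (4 after median-ratio scaling) beside 18.5% of all genes, among them Bid (1.63), Bbc3 (1.31), Bax (1.22) and, as deposited only, Bak1 (0.84), while Endog (-0.93) and Cycs (-0.91), both mitochondrial, fell.

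Transcripts of resident and infiltrating cells moved too, and in whole muscle more cells of a type and more RNA per cell cannot be told apart. All 12 macrophage markers rose under both scalings, and their summed level was 179 to 262 FPKM at day 0 and 726.5 to 893 FPKM at day 5. Cd68, a lysosomal protein of macrophages, was at 6.402, 5.12, 7.30 and 6.32 FPKM at day 0 and at 50.4, 53.9, 59.3 and 71.7 FPKM at day 5 (log2 change 3.03). The macrophage rise accompanied those of Ccl8 and of the lysosomal proteases above, and its part in them was not tested. Of 6 neutrophil markers 4 could be tested and 3 rose, S100a8 from 0.213 to 19.0 FPKM (4.00), while Ly6g and Mpo were too low to test. None of 3 T cell and 1 B cell markers tested was called. Of 8 endothelial markers 1 fell as deposited (Kdr, -0.69) and 5 after median-ratio scaling. Of 8 satellite cell markers Sdc4 (1.43) and Cdh15 (1.05) rose, Chodl (-0.66) fell and Pax7, which defines these cells, changed by -0.02. Of 6 tendon markers, Scx (2.73) rose, Thbs4 rose by 0.64 as deposited but not after median-ratio scaling nor when some single samples were left out, and Tnmd (-1.31) and Fmod (-0.88) fell. Fibro-adipogenic markers had 1 call of 6 (Pi16, 0.98), adipocyte markers 1 of 6 (Retn, -1.16), smooth muscle markers 1 of 7 (Rgs5, -0.63) and erythroid markers none of 5, beside 23.3% of all genes called in either direction. After median-ratio scaling 2 fibro-adipogenic, 2 adipocyte and 3 smooth muscle markers were called lower.

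Schwann cells, which wrap the axons, had lower myelin transcripts and higher markers of the state without axons. Of 11 markers tested, 5 fell and 4 rose. Prx, which encodes periaxin, a protein of myelinating Schwann cells, was at 9.16, 10.5, 5.79 and 4.79 FPKM at day 0 and at 0.682, 0.384, 0.309 and 0.514 FPKM at day 5 (log2 change -2.49 ± 0.20, SE). The myelin genes Mbp (-2.25), Pmp22 (-1.61) and Mag (-0.64) fell with it. Ngfr, the p75 neurotrophin receptor of Schwann cells without axon contact, was at 0.584, 0.311, 0.475 and 0.256 FPKM at day 0 and at 26.5, 7.89, 11.3 and 20.8 FPKM at day 5 (3.51). Cdh19 (1.87) and Gap43 (0.99) rose, and Sox10, the factor that defines the lineage, rose by 0.80 as deposited but not after median-ratio scaling nor when some single samples were left out (limma adjusted p up to 0.0609). Samples of a day differed in the same order for several of these genes. Day 0 samples 1 and 2 were above the others for Prx, Mbp and Pmp22, as they were for Myl2 and Myl3, and at day 5 the order for Ngfr and Cdh19 from high to low was sample 1, 4, 3 and 2.

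**Figure D4:**
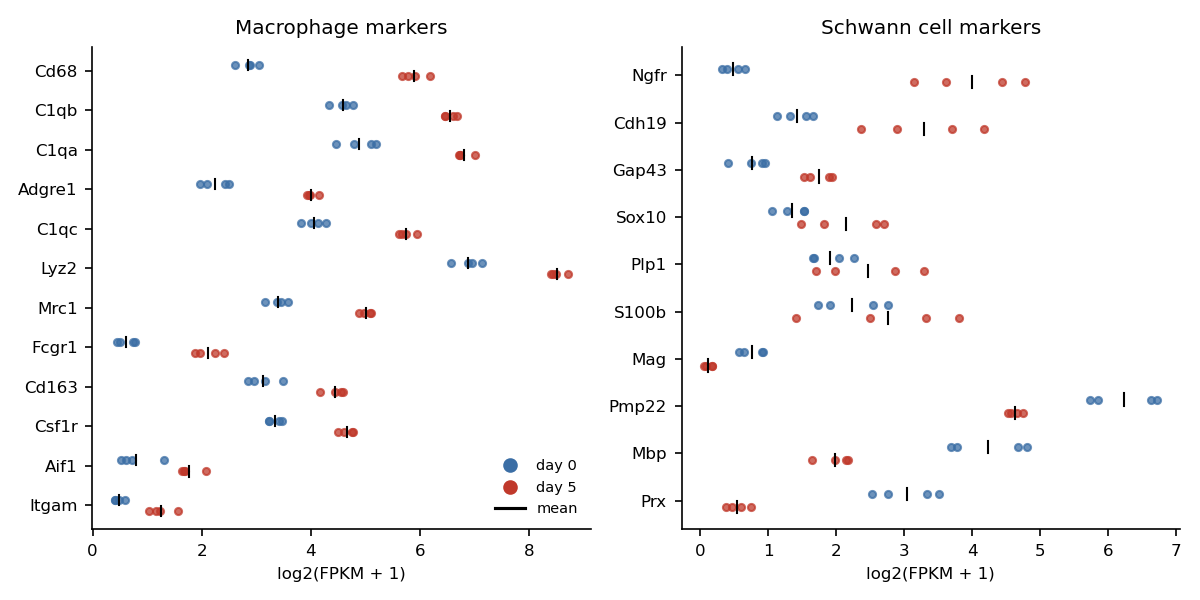
log2(FPKM + 1) of macrophage markers and of the Schwann cell markers reported here in each of the 8 samples, with a line at each mean. All 12 macrophage markers are higher at day 5, whereas the Schwann cell markers Prx, Mbp, Pmp22 and Mag fall, and Ngfr and Cdh19 rise with a wide spread among day 5 samples.

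Many genes of the extracellular matrix and of cell division rose, beside 18.5% of all genes. Of 22 matrix genes 11 rose and none fell (9 after median-ratio scaling). Timp1, an inhibitor of matrix proteases, was at 2.12, 1.43, 0.295 and 0.922 FPKM at day 0 and at 16.7, 15.5, 15.4 and 23.6 FPKM at day 5 (log2 change 3.15). Periostin (Postn) rose from 3.44 to 34.9 FPKM (3.03), tenascin C (Tnc) by 1.97, Col3a1 by 1.73, the crosslinking enzyme Lox by 1.52, fibronectin (Fn1) by 1.34 and Col1a1 by 1.09. Of 20 genes of the cell cycle and DNA replication, 17 rose (11 after median-ratio scaling), at low levels, of which Bub1 passed the filter through the day 5 samples alone. Mki67 rose from 0.293 ± 0.0541 to 2.80 ± 0.840 FPKM (1.53), Ccnb2 by 1.59 and Top2a by 1.36. In this mixture of cells, which of them divided was not measured.

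To place day 5 in the time course, it was compared with 4 samples each at day 3 and day 7 in a fit over all 32 samples, which tested 22071 genes. Day 5 differed from day 3 in 1272 genes (5.76%), 820 higher (3.72%) and 452 lower (2.05%), and from day 7 in 145 genes (0.657%), 46 higher (0.208%) and 99 lower (0.449%). Leaving out day 3 sample 1 reduced the 820 to 585. Of the 3321 genes higher at day 5 than at day 0, 352 were higher, 149 lower and 2820 not called against day 3. Of the 854 lower genes, 100 were higher, 85 lower and 669 not called. Both comparisons share the day 5 samples with each other and with the comparison above.

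Of the 5 receptor subunits, 4 were called higher at day 5 than at day 3, and of the 16 regulators 2 were higher and 4 lower, beside 3.72% of all genes higher and 2.05% lower. Chrna1 was at 49.0 ± 21.4, 122 ± 8.05 and 172.5 ± 21.9 FPKM at day 3, day 5 and day 7, higher at day 5 than at day 3 (log2 difference 1.41) and not called against day 7. Chrnd (1.36) and Chrng (0.85) were also higher at day 5 than at day 3, Chrnb1 was not called (0.46), and Chrng was lower than at day 7 (-0.93). Chrne was at 7.61 FPKM at day 0, 1.24 at day 3, 3.78 at day 5 and 6.29 at day 7, so day 5 lay between its low at day 3 (1.12) and a higher level at day 7 (-0.61). Myog was at 215 FPKM at day 3 and 94.2 FPKM at day 5 (-1.17), and Myf6 (-0.61), Mymk (-1.50) and Mymx (-1.51) were also lower at day 5 than at day 3, while Hdac4 and Mef2c (0.70 each) were higher. Ankrd1 was at 1360 and 543 FPKM (-1.32) and Trim63 at 1264, 564 and 262 FPKM at day 3, day 5 and day 7 (-1.15 against day 3 and 1.13 against day 7).

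Among the sarcomere and triad genes, several that were low at day 3 were higher at day 5. Myh2 was at 440.5 FPKM at day 0, 74.2 at day 3 and 564 at day 5 (log2 difference 3.14 against day 3), and Casq1 at 687, 80.6 and 299.6 FPKM (1.92). Myh7 (2.64), Myl2 (1.61), Hrc (1.14), Pvalb (0.89) and Cacna1s (1.07) were also higher at day 5 than at day 3. Of the cytoskeletal genes, 4 were higher and 7 lower than at day 3, with Igfn1 (2.32), Krt18 (2.88) and Krt8 (2.57) higher and Xirp1 (-2.01), Flnc (-1.26) and Ankrd2 (-1.19) lower. Of the 17 Atf4 response genes, 7 were lower at day 5 than at day 3, among them Atf4 (140.2 to 59.8 FPKM, -1.20) and Eif4ebp1 (223 to 74.0 FPKM, -1.56).

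By the rule of size, the genes most raised from day 3 to day 5 were Nabp1 (7.93 to 76.2 FPKM, log2 difference 3.16), Myh2, Krt18 and Ddit4l (2.76), and those most lowered were the metallothionein Mt1 (415 to 36.2 FPKM, -3.47), the iron carrier Lcn2 (-2.95), Acot2 (-2.90) and Retreg1 (-2.86). Against day 7, Nmrk2 (1.34), Trim63 (1.13), Mybpc2 (1.13) and Dupd1 (1.01) were highest above it, and Sln (28.9 against 98.6 FPKM, -1.73), Iigp1 (-1.31), Gbp4 (-1.13) and Cdkn1a (-1.11) lowest below it. Iigp1 and Gbp4 are interferon-induced GTPases. Day 5 stood above both neighbors for 11 genes and below both for 5. After median-ratio scaling the 5 were still called against both neighbors, and not all of the 11 were. Those above included Dupd1 (116, 254 and 126 FPKM at day 3, day 5 and day 7), Ppp1r27 (970.3, 1599 and 926 FPKM), Nfkb2 (13.6, 23.6 and 12.9 FPKM) and the Notch ligand Dll1 (3.33, 6.10 and 3.396 FPKM), which were chosen after their values were seen. The 5 below were Dusp1 (25.2, 7.12 and 11.4 FPKM), Cdkn1a (76.0, 38.5 and 85.6 FPKM), the receptor subunit Chrna9, Chac1 and Gm45512.

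**Figure D5:**
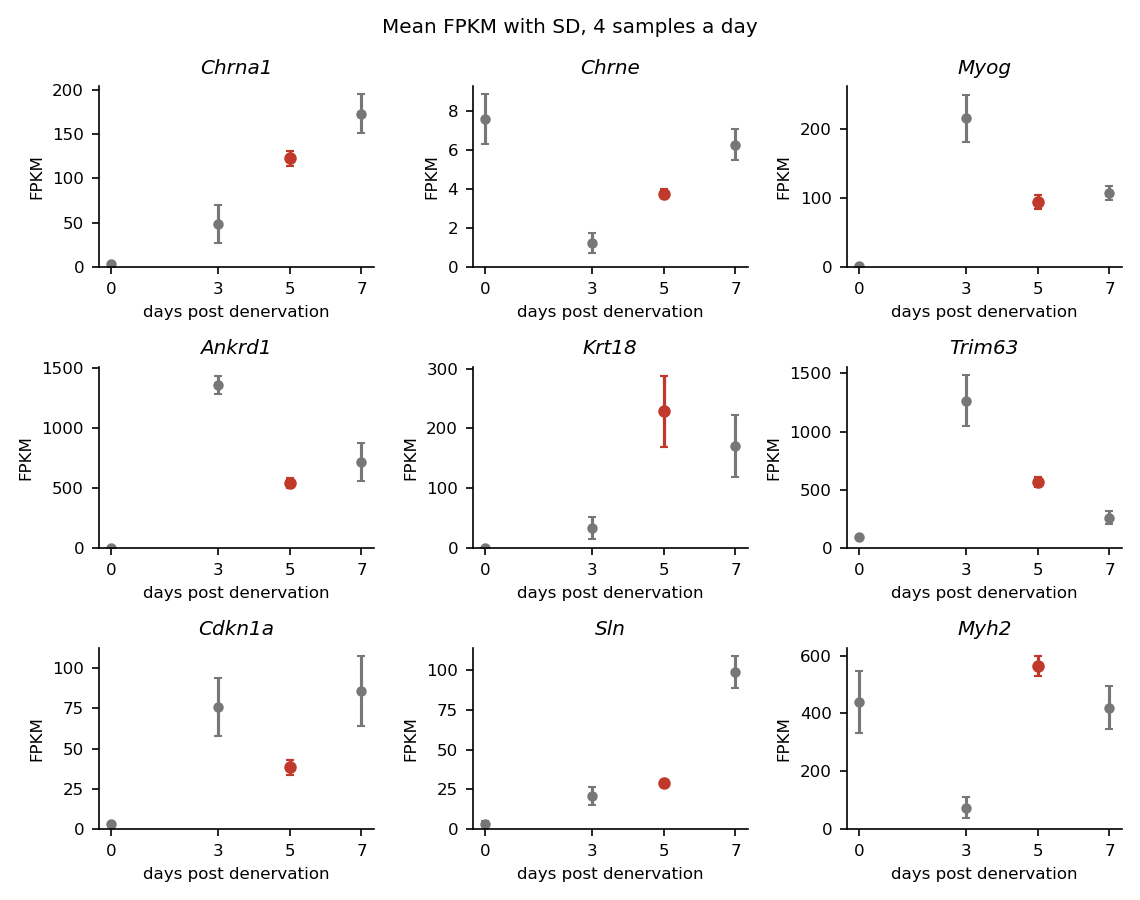
Mean FPKM with SD (4 samples a day, linear axes from 0) at day 0, 3, 5 and 7 for 9 genes, with day 5 in red. Sln is highest at day 7, Chrna1 is higher at day 5 than at day 3, Myog, Ankrd1 and Trim63 are highest at day 3, Chrne and Myh2 are lowest at day 3, and Cdkn1a is lower at day 5 than at both neighbors.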

How the data were processed

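Total RNA of 8 GAS muscles (4 at day 0, 4 at day 5) was compared, and all 32 samples entered the fit against day 3 and day 7. The study's methods give paired-end Illumina reads of VAHTS Universal V6 libraries. The submitters' processing notes name CASAVA, HISAT2 2.1.0, DESeq2 and the build GRCm38, and the counter and its use of strand are not given in the sources used here. The authors deposited FPKM per gene and sample. Columns were tied to days by name (day 0 is the group lettered C), not to single labelled samples.

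Genes with at least 0.1 FPKM in at least 4 samples were fitted with limma 3.58.1 (R 4.3.3, eBayes with a variance trend) on log2(FPKM + 1), a pseudocount of 1, and called at a Benjamini-Hochberg adjusted p below 0.05 and at least 1.5-fold. SE values are limma's. On simulated day 5 and day 0 data of 17586 genes, 161 of 200 genes changed by 2-fold (80.5%) were recovered, with 4 false calls. The simulation drew counts from day 0 means with the same dispersion for every gene. It changed as many genes up as down, all with at least 1 FPKM at day 0. It therefore held no shift of the median gene like that of the real data, and its false calls do not carry over to them. Exon lengths of GENCODE M21 (33356 genes matched) turned 99.4% of values below 200 fragments into whole numbers within 0.05, which gave the depths and the fragments for limma-voom as an alternative. Replicates differed by more than sampling noise (chi-square per degree of freedom 5.40 to 18.0).

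Genes named are the 12 largest increases and decreases among called genes without Gm or Rik symbols, with no overlap and a mean of at least 5 FPKM in the higher group, the 10 molecules the study measured, up to 4 called members a direction of each list with its defining members, and the 4 largest changes a direction against day 3 and day 7. Members and lists were chosen with earlier results of these data known. Of 588 list and marker genes tested, 6 passed the filter through day 5 samples alone, 4 of them called higher. Alternatives were other pseudocounts, filters, scalings, thresholds and fits and leaving out each sample. Some genes that these rules name are not reported here. Promoters are RefSeq windows, and Chrnd had none.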

Additional observations from a re-analysis of the deposited data

Results flagged for a closer look

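In 8 of 64 groups of 4 samples checked, among 32 named genes, 1 sample lay far from the other 3 by Dixon's ratio at the 95% level, where chance alone flags about 1 group in 20. At day 5, Krt8 was at 98.7 FPKM in 1 sample and 63.4 to 67.4 FPKM in the others, Gadd45a at 188 FPKM beside 208 to 212 FPKM, and Odf3l2 at 0.690 FPKM beside 0.238 to 0.281 FPKM. At day 0, Cpne2 was at 7.64 FPKM beside 4.22 to 4.71 FPKM, Odf3l2 at 22.7 FPKM beside 15.0 to 15.7 FPKM, Mlf1 at 199 FPKM beside 171 to 174 FPKM, Pycard at 0.290 FPKM beside 0.138 to 0.149 FPKM and Il18 at 1.53 FPKM beside 1.89 to 1.95 FPKM. Krt8, Gadd45a, Cpne2, Odf3l2 and Mlf1 were named by a rule that requires no overlap between the days, so their separation follows from that rule. The groups of Pycard did not overlap and those of Il18 did.

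The change from day 0 differed between day 5 and day 3, by limma on the difference of the days, in 17 of the 32 named genes and between day 5 and day 7 in 2, beside 5.76% and 0.657% of all genes tested. Most of these genes were chosen for their change from day 0 to the same day 5 samples, so the counts are a description. Day 5 was above day 3 (log2 difference) for Krt18 (2.88), Plekhh1 (2.58), Krt8 (2.57), Tmem233 (2.0985), Ky (1.57), the shorter Aldoa row (1.54), Chrna1 (1.41), Rrad (1.37), Ccl8 (1.36), Smco1 (1.18) and Cpne2 (1.01). It was below day 3 for Slc16a3 (-2.52), Ankrd1 (-1.32), Myog (-1.17), Trim63 (-1.15), Dhrs7c (-0.81) and Mlf1 (-0.64). Day 5 was above day 7 for Trim63 (1.13) and Ces2c (0.64).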

How the results depend on the processing

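Of 568 values of single named genes recomputed, 559 kept their direction and their side of an adjusted p of 0.05. The exceptions were Il18, whose sign reversed to -0.13 under median-ratio scaling and under quantile normalization, and Pycard, Gsdmd and Il1b, which crossed it under some settings. With the 1.5-fold threshold included, Casp1 kept its call in 15 of 18 alternatives, and the genes not called as deposited stayed so in 14 of 17 for Nlrp3 and for Pycard and 16 of 17 for Il1b. The counts of genes depended on scaling and thresholds. The 3321 genes higher than at day 0 became 5325 with a pseudocount of 0.1, 1460 with median-ratio scaling, 6357 as TPM, 1578 with quantile normalization, 5500 with limma-voom on fragments, 8274 without a fold threshold and 1070 at 2-fold, and 3140 to 3400 when each sample was left out. The 854 lower genes became 1322, 1620, 817, 1543, 1386, 2121 and 376 under the same settings in that order, with 815 to 877 when each sample was left out. Called genes were 88.6% higher as TPM and 50.6% higher with quantile normalization. Against day 3, the 820 higher genes became 1983 with a pseudocount of 0.1 and 515 with median-ratio scaling and were 585 to 1028 without single samples, and the 452 lower genes became 689 with median-ratio scaling and were 430 to 482. Against day 7 the counts stayed within 1.5 times, 39 to 53 higher and 72 to 93 lower without single samples. Of 936 list counts recomputed, 59 moved by over 1.5 times, most under other scalings. TPM left 9 of 35 respiratory chain genes called lower, and the adult fast sarcomere list had 1 member called higher with quantile normalization. No paired analysis was possible because the columns carry no replicate numbers of the labels. Nlrp3 and Il1b rest on few fragments, 1 to 8 and 0 to 3 a sample at day 0, and the log2 change of 0.26 for Nlrp3 stands beside a ratio of mean FPKM of 4.32, since the pseudocount compresses low values.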
